A study of Marmota monax with 203 samples.

Results

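Interferon regulatory factors are transcription factors that share a DNA-binding domain recognising interferon-stimulated response elements in promoters. The genes examined here are IRF1, IRF2, IRF3, IRF4, IRF5, IRF7 and IRF8, chosen by their symbols, which are 7 of the 17587 woodchuck genes listed. IRF9, of the same family, is given beside them for comparison. All 7 genes had reads in every biopsy used, from 43 reads (IRF7) to 31399 reads (also IRF7), and all 7 passed the filter on low counts in every comparison.

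IRF3 and IRF7 are activated by phosphorylation downstream of nucleic acid sensors and drive the transcription of type I interferons and of many interferon-stimulated genes (ISGs). IRF7 is itself an ISG, so that its amount depends on interferon signalling, whereas IRF3 protein is made constitutively. IRF1 is an activator that interferons induce through STAT factors, and IRF2 binds the same element and can repress it. IRF4 and IRF8 are found mainly in lymphoid and myeloid cells, and IRF5 acts downstream of Toll-like receptors in myeloid and B cells. In the liver, hepatocytes make up most of the RNA, and the last 3 genes are known mainly from immune cells. 

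The animals were captive-born adult woodchucks (Marmota monax) that carried woodchuck hepatitis virus (WHV) chronically after infection as newborns, and the carrier state is shared by both groups. Placebo animals (12 animals, 6 of them male) received placebo, and the treated group (11 animals, 5 of them male) received recombinant woodchuck interferon-α (wIFN-α) subcutaneously 3 times per week, at 20 μg per dose at weeks 0 and 3 and at 100 μg per dose at weeks 7, 11 and 15. Liver biopsies at these weeks were taken 6 hours after a dose. In treated animals this was the first dose of 20 μg at week 0 and the first of 100 μg at week 7. Biopsies at weeks -3, 19 and 23 were off treatment. Another treated animal, M1004, is left out of the groups and given separately below. The paper excluded it as an animal that was likely already clearing the virus by itself at the start. The biopsies per week from -3 to 23 numbered 12, 12, 12, 12, 10, 9, 5 and 9 for placebo and 11, 11, 9, 9, 8, 8, 6 and 6 for wIFN-α, 149 biopsies in all with 12072840 to 84805845 reads on genes (median 28754894). The question put to these data is how the transcript of each factor responds to repeated wIFN-α in the infected liver, and whether the response depends on dose or persists off treatment.

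Levels are given as CPM, a gene's reads scaled to a common library size. Some facts on the biopsies touch the values below. Marker genes of hepatocytes were abundant in most biopsies. The summed level of 10 such genes had a median between 53814 CPM (treated animals, week 11) and 125590 CPM (placebo animals, week -3). At week -3, however, the lowest biopsy of each group had far less, 5870 CPM with placebo and 2821 CPM with wIFN-α. In 3 biopsies, 20 skeletal muscle marker genes alone took more than 10% of the reads. These were F1016 (placebo) and F1018 (wIFN-α) at week -3, at 14.55% and 14.8%, and F1021 (placebo) at week 3, at 12.1%. The other biopsies had a median of 0.0402% and at most 8.00%. Leaving out these 3 biopsies changed no call. The repeat runs of a biopsy, present for 37 of the biopsies used, differed by a median of 0.035 (IRF2) to 0.12 (IRF4) on the log2 scale. In M1008 (placebo) at week 15, the 2 runs differed more in IRF7 than those of any other biopsy, with 32.5 and 23.4 CPM, and 29.4 CPM in their sum. The count of genes called at week 15 was 5 with and without this biopsy. The treated biopsy of F1013 at week 3 stands apart too and is described with IRF7.

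On treatment, transcripts of 5 of the 7 factors were higher with wIFN-α than with placebo at every one of the 5 weeks: IRF7, IRF1, IRF8, IRF4 and IRF2, in this order of effect at week 15. IRF7 rose by 11.5-fold to 17.2-fold, IRF1 by 2.53-fold to 4.43-fold, and IRF2 by 1.64-fold to 2.19-fold. IRF3 rose by less. IRF5 lay at the threshold, called at no week by edgeR and at weeks 0, 7 and 15 by limma-voom. Off treatment, none of the 7 was called. Calls needed more than a 1.5-fold change and an adjusted p (Benjamini-Hochberg, over all genes tested) under 0.05, from edgeR's quasi-likelihood test.

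The count of members called higher was 5 at week 0, where 10.3% of the 14700 genes tested were called higher, and 5 at week 3, where 7.24% of 15006 were. It was 6 at week 7, with IRF3 as the sixth (11.4% of 14868 genes), 5 at week 11 (12.6% of 14966) and 5 at week 15 (13.4% of 14943). No member was called lower at these weeks. The median log2 fold change of the 7 members was 1.12 at week 0 and 1.71 at week 15, where the median of all genes was -0.01 at both weeks. A second view of the same values is whether the groups overlap. Every wIFN-α animal lay above every placebo animal for 2 members at week 0 (4.46% of all genes tested), for 1 member at week 3 (0.413%), for 6 members at week 7 (8.02%), for 5 at week 11 (7.37%) and for 6 at week 15 (8.17%). IRF7 was the member without overlap at all of these weeks. At week 3 its margin was narrow, 50.7 CPM in treated animal F1013 against 49.7 CPM in the highest placebo animal. Above all placebo animals that week lay 8 of 9 treated animals for IRF2, all but F1013. The number was 7 of 9 for IRF1 and IRF4, 6 for IRF3 and IRF8 and 0 for IRF5. What F1013 contributed to the week 3 share over all genes was not tested.

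**Figure D1:**
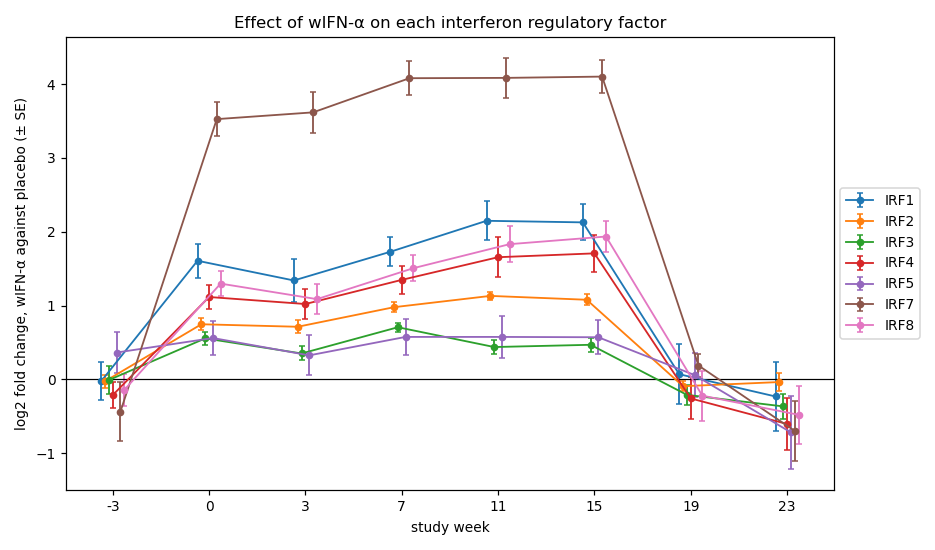
The log2 fold change of wIFN-α against placebo (vertical axis, ± SE) is plotted for each of the 7 genes at each study week (horizontal axis), from 1 fit per week. IRF7 lies between 3.53 and 4.10 from week 0 to week 15, the other 6 genes lie between 0.32 and 2.15, and at week 19 all 7 lie within 0.26 of 0.

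IRF7 had the highest effect of the 7 genes at every treatment week. In placebo biopsies it ranged from 2.42 to 119 CPM with a median of 27.9 CPM (n = 81), and in treated biopsies of weeks 0 to 15 from 50.7 to 676 CPM with a median of 484 CPM (n = 45). At week 0, the lowest, median and highest placebo values were 22.0, 38.0 and 110.5 CPM (12 animals), and those with wIFN-α 340, 517 and 663 CPM (11 animals). The groups were thus far apart after the start of dosing. At week 15, placebo animals had 13.8, 24.8 and 42.2 CPM (9 animals) and treated animals 341, 431 and 599 CPM (8 animals). This is a log2 effect of 3.53 ± 0.23 (SE) at week 0 (adjusted p = 1.02e-11) and of 4.10 ± 0.22 at week 15 (adjusted p = 4.43e-11). Between these weeks it was 3.62 ± 0.28, 4.08 ± 0.23 and 4.08 ± 0.27. Of the 45 treated biopsies, 44 exceeded the highest of all 81 placebo biopsies. In each of the 11 treated animals IRF7 was higher at week 0 than at week -3, by 3.14 to 7.45 on the log2 scale, the latter in F1018, whose week -3 biopsy held muscle. In placebo animals the same change ran from -0.56 to 3.85, with the highest in F1016, whose week -3 biopsy held muscle as well.

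The exception among the treated biopsies was F1013 at week 3, with 50.7 CPM of IRF7. The other 8 treated animals had 306 to 657 CPM at that week, and the highest placebo animal had 49.7 CPM. In the same animal IRF7 was at 663 CPM at week 0 and 676 CPM at week 7, the highest treated value at both weeks. F1013 at week 3 also had the lowest treated value of that week for IRF1 (29.2 CPM), IRF2 (61.9 CPM), IRF4 (8.71 CPM), IRF5 (47.0 CPM) and IRF8 (22.2 CPM), all within the placebo range. Its ISGs OASL (3.27 CPM), RSAD2 (20.5 CPM) and the chemokine gene CXCL10 (26.3 CPM) were within the placebo range as well. ISG15, a ubiquitin-like ISG, was at 2.69 CPM, below the 7.49 to 45.9 CPM of placebo animals, where the other treated animals had 698 to 1221 CPM. Without this biopsy, the week 3 effect was 3.77 for IRF7, 1.46 for IRF1, 0.76 for IRF2, 1.11 for IRF4 and 1.19 for IRF8 on the log2 scale, and the same number of members, 5, was called. 

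**Figure D2:**
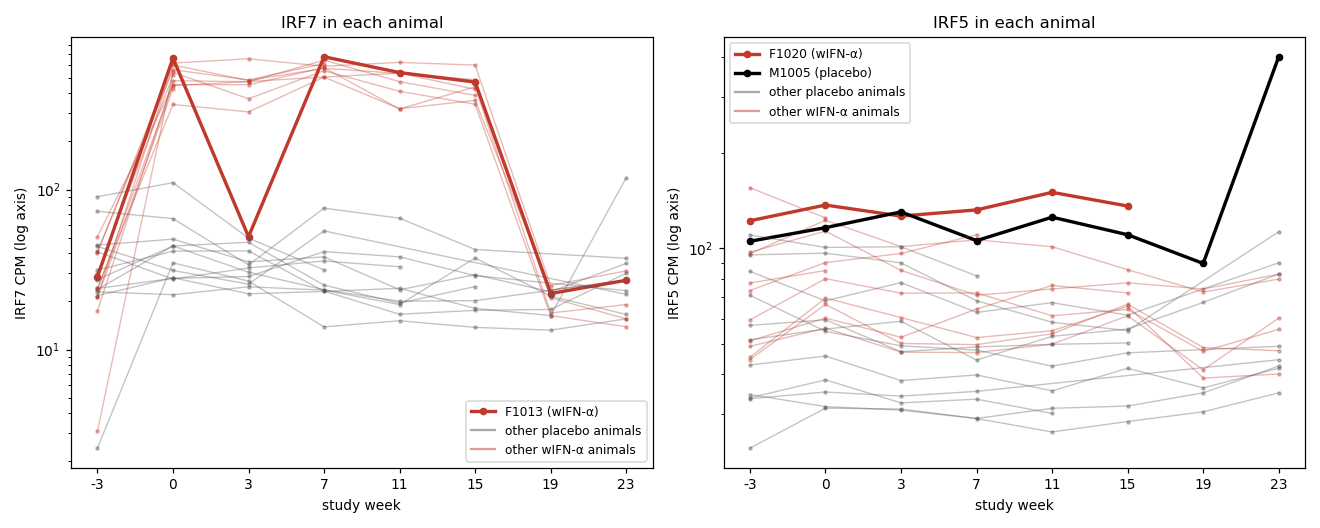
CPM of IRF7 (left) and IRF5 (right) on log axes are plotted by study week, with 1 line per animal, placebo in grey and wIFN-α in red. The bold red line at left is F1013, which falls to 50.7 CPM at week 3 only, and at right F1020 (bold red) and M1005 (bold black) keep high IRF5 values from week to week.

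IRF1 and IRF2, the activator and its counterpart at the same element, both rose, IRF1 by more. IRF1 in placebo animals at week 0 had 19.3, 42.7 and 109 CPM (lowest, median and highest) and treated animals had 97.1, 143 and 227 CPM. The groups overlapped by 1 placebo animal, F1015, at the high end. At week 15, placebo animals had 19.9, 46.4 and 63.1 CPM and treated animals 111, 158 and 261 CPM, with no overlap. For IRF1 the log2 effect was 1.61 ± 0.23 at week 0, 1.34 ± 0.29 at week 3, 1.73 ± 0.19 at week 7, 2.15 ± 0.26 at week 11 and 2.13 ± 0.24 at week 15 (adjusted p = 0.0021 at week 3 and at most 7.44e-06 at the others). The week 3 effect was 1.02 without M1007, which had 268 CPM. IRF1 also differed within placebo animals, being higher at week 0 than at week -3 in 11 of 12.

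IRF2 was the steadiest of the 7 genes, with a coefficient of variation of 10.1% over the placebo biopsies, where the other 6 had 19.6% (IRF3) to 76.4% (IRF5). At week 0, placebo animals had 51.1, 59.8 and 68.8 CPM and treated animals 72.6, 106 and 127 CPM. At week 15, placebo animals had 48.7, 56.0 and 64.7 CPM and treated animals 104, 114 and 141 CPM. The groups did not overlap at either week, although the change was small. Log2 effects were 0.75 ± 0.08, 0.71 ± 0.09, 0.98 ± 0.06, 1.13 ± 0.06 and 1.08 ± 0.07 at weeks 0, 3, 7, 11 and 15, with adjusted p = 2.22e-06 or lower. At a threshold of a 2-fold change IRF2 was called at weeks 11 and 15 only.

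The ratio of IRF1 to IRF2 within a biopsy puts both on 1 scale free of library size. Its log2 mean was -0.41 ± 0.66 (SD, n = 12) in placebo animals and 0.58 ± 0.36 (n = 11) in treated animals at week 0. The difference of 0.98 passed a two-sided permutation test over the animals (p = 0.00036, adjusted p = 0.0018 over the 8 weeks). It was 0.81 at week 7 (exact permutation p = 0.00063, adjusted p = 0.0018), 1.03 at week 11 (exact permutation p = 0.0030, adjusted p = 0.0059) and 1.11 at week 15 (exact permutation p = 0.00066, adjusted p = 0.0018). At week 3 the difference of 0.51 did not pass (exact permutation p = 0.081, adjusted p = 0.13), and without F1013 it was 0.65 with an adjusted exact permutation p = 0.039. At weeks -3, 19 and 23 the differences of 0.01, 0.37 and 0.04 did not pass (adjusted permutation p = 0.98, 0.57 and 0.98).  The groups overlapped at each week, with 4 of 11 treated animals above all placebo animals at week 0 and 5 of 8 at week 15.

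**Figure D3:**
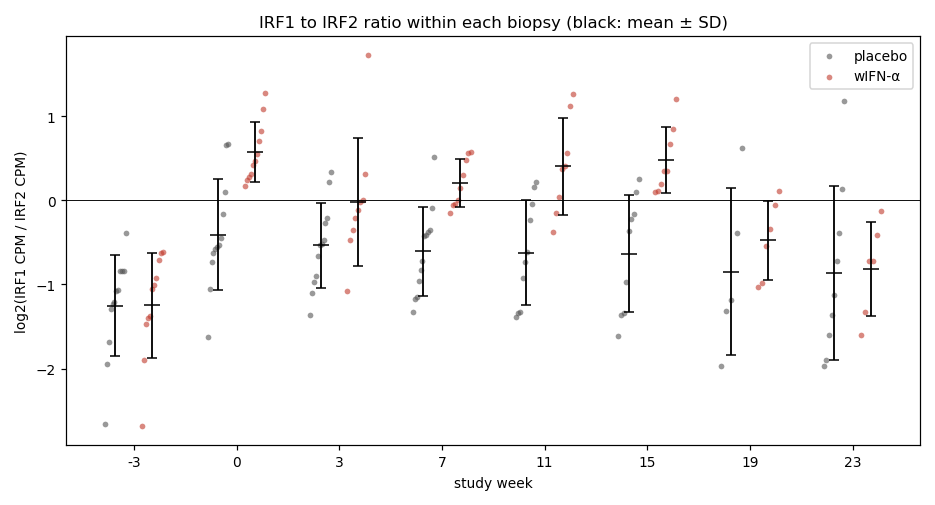
The log2 ratio of IRF1 CPM to IRF2 CPM is plotted for each biopsy by study week, placebo in grey and wIFN-α in red, with black bars for the mean ± SD. CPM are not divided by length, so the sign of the ratio does not rank these genes. Treated means lie above placebo means by 0.98, 0.51, 0.81, 1.03 and 1.11 at weeks 0, 3, 7, 11 and 15, and by 0.01 at week -3.

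IRF8, a factor of monocytes, dendritic cells and B cells, and IRF4, a factor of activated lymphocytes and plasma cells, rose in parallel. IRF8 at week 0 was at 20.7, 22.4 and 46.7 CPM in placebo animals and at 44.2, 64.0 and 98.9 CPM in treated animals. At week 15 it was at 12.1, 18.2 and 40.1 CPM against 56.8, 73.0 and 116 CPM, without overlap. Its effect went from 1.297 ± 0.17 (log2) at week 0 to 1.09 ± 0.20, 1.51 ± 0.17, 1.83 ± 0.24 and 1.93 ± 0.21 at week 15 (adjusted p = 0.0005 at week 3 and at most 6.22e-06 otherwise). The highest value at weeks 11 and 15 came from F1020, at 118 and 116 CPM.

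IRF4 was the least abundant of the 7. At week 0, placebo animals had 6.38, 8.97 and 19.4 CPM and treated animals 17.8, 20.8 and 29.4 CPM. At week 15 the values were 4.58, 8.29 and 15.5 CPM against 18.5, 24.6 and 51.1 CPM, so that the groups separated. The log2 fold change was 1.12 ± 0.16, 1.02 ± 0.20, 1.35 ± 0.19, 1.65 ± 0.27 and 1.71 ± 0.25 over the 5 weeks (adjusted p = 0.000765 at week 3 and at most 9.63e-05 otherwise). F1020 again had the highest values at weeks 11 and 15, 54.3 and 51.1 CPM, where the other treated animals of those weeks did not exceed 26.3 CPM.

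Markers of immune cells moved with these genes in part, and in bulk RNA more cells of a type and more RNA per cell cannot be told apart. The summed level of 12 T cell markers was 127 to 288 CPM in treated animals at week 15 (8 animals) and 50.7 to 102 CPM in placebo animals (9 animals), with 9 of 12 genes called higher. CD2 and CD6, at log2 fold changes of 1.87 and 1.61, were the highest and CD4, at 0.08, the lowest. Of the B and plasma cell markers, 10 of 12 were listed and 6 of 9 tested were called higher at week 15, with FCRL5 at 1.87, MZB1 at 1.76 and POU2AF1 at 0.37, and their sum was 36.8 to 126 CPM against 12.5 to 33.3 CPM. At week 0, where IRF4 and IRF8 were already called, 1 of 12 T cell and 2 of 9 B and plasma cell markers were called higher, with medians of log2 fold changes of 0.18 and -0.06, and their sums overlapped between the groups (56.2 to 160 against 74.7 to 142 CPM for T cells, 29.5 to 66.2 against 16.9 to 49.0 CPM for B and plasma cells). The 9 listed of 10 cytotoxic and NK cell markers summed to 37.5 to 75.3 CPM against 16.2 to 26.1 CPM at week 15, with 6 of 8 called higher, GZMA at 2.29, FASLG at 2.10 and GZMB at 0.55. At week 0 they were at 29.0 to 58.3 CPM against 15.5 to 30.2 CPM, with 4 of 8 called higher. 

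Macrophage markers overlapped at week 15 (549 to 1518 against 319 to 748 CPM for 12 genes), with 4 of 12 called higher and 1 lower, C1QC at 1.01, C1QA at 0.94 and CD163 at -1.94. Dendritic cell markers overlapped as well (26.4 to 39.5 against 30.7 to 37.4 CPM for 7 genes), and CLEC4C, a plasmacytoid dendritic cell receptor, was the only one of 6 called higher, at 3.33, beside CCR7 at 0.85 and ZBTB46 at -0.43. Neutrophil markers had 2 of 7 called higher (CSF3R at 2.59, S100A9 at 0.98, which was not called, and ELANE at -1.09). Hepatocyte markers had 0 of 10 called at weeks 0 and 15 (APOA1 at 0.33, SERPINA1 at 0.12 and TAT at -0.38 at week 15), and muscle markers 0 of 19 (CKM at 0.06, MYH2 at 0.03 and MYH1 at -0.66). No marker was at 0 in every biopsy of a group, and the part of these cells in the IRF values was not tested. Relative to the summed markers, IRF4 per T cell marker level was higher with wIFN-α by 0.81 on the log2 scale at week 0 and by 0.77 at week 15, and per B and plasma cell marker level by 0.63 and 0.53. IRF8 was higher by 0.78 and 0.77 per B and plasma cell marker level, by 1.32 and 1.36 per macrophage marker level and by 1.31 and 2.11 per dendritic cell marker level. At week 19 these 5 differences were -0.04, 0.12, 0.20, -0.23 and -0.06.

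IRF3, the constitutive partner of IRF7, changed least among the genes that passed the adjusted p. Placebo animals at week 7 had 23.3, 26.2 and 30.3 CPM and treated animals 38.7, 41.5 and 53.3 CPM, without overlap. At week 3 they had 22.9, 29.6 and 36.4 CPM against 29.7, 37.3 and 49.2 CPM, with overlap. Over weeks 0, 3, 7, 11 and 15 the log2 effects were 0.55 ± 0.09, 0.35 ± 0.10, 0.71 ± 0.06, 0.44 ± 0.09 and 0.47 ± 0.09, with adjusted p between 3.80e-09 and 0.012. Only the week 7 effect exceeded 1.5-fold and was called, and without F1023 the week 0 effect of 0.595 was called as well. With each animal as its own block, that is, as a change from its week -3 biopsy, the effect at weeks 3 and 11 had adjusted p = 0.12 and 0.052. Within all 8 treated animals sampled at both weeks, IRF3 was lower at week 15 than at week 0, with a median log2 change of -0.45, and it was lower in 7 of 9 placebo animals as well, with a median over the 9 of -0.26.

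IRF5 lay at the threshold at weeks 0, 7 and 15, and most of its spread lay between animals. The log2 fold change was 0.56 ± 0.23, 0.32 ± 0.27, 0.57 ± 0.24, 0.57 ± 0.29 and 0.57 ± 0.23 at weeks 0, 3, 7, 11 and 15, with adjusted p = 0.059, 0.41, 0.055, 0.12 and 0.057. By edgeR none of these was called. With limma-voom, IRF5 was called at week 0 (0.63, adjusted p = 0.037), week 7 (0.60, adjusted p = 0.040) and week 15 (0.64, adjusted p = 0.030), where 9.99%, 11.6% and 13.3% of genes were called higher by that tool. With edgeR it was called at week 0 without M1002 (0.61, adjusted p = 0.043) or F1013 (0.62, adjusted p = 0.042), and at week 7 without M1003 (0.63, adjusted p = 0.043), F1013 (0.65, adjusted p = 0.034) or F1018 (0.64, adjusted p = 0.039). At week -3, before dosing, the effect was 0.36. With the animal as a block it was 0.24 at week 0 and 0.39 at week 15 (adjusted p = 0.19 and 0.043), below 1.5-fold. In placebo animals at week 15, IRF5 was at 28.4, 50.3 and 110 CPM and in treated animals at 61.3, 69.5 and 136 CPM. The treated animals thus lay within the placebo range except for the highest. The top of that range was M1005 alone, and the other placebo animals had at most 61.6 CPM. Below every treated animal lay 7 of the 9 placebo animals. No fit of weeks 0 to 15 left M1005 out. Once the mean of each week was removed, differences between animals made up 89.9% of the variance of IRF5 in placebo biopsies and 89.7% in treated biopsies of weeks 0 to 15. For the other 6 genes this share was 22.8% (IRF2) to 71.1% (IRF4) in placebo biopsies and 22.9% (IRF7) to 59.2% (IRF4) in treated ones. With few biopsies per animal, part of such a share arises even where animals do not differ, and that part was not estimated.

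Placebo animal M1005 had IRF5 between 89.6 and 402 CPM over 8 biopsies. The 73 biopsies of the other placebo animals had a median of 46.8 CPM and a range of 23.4 to 113 CPM. Treated animal F1020 had 122 to 150 CPM over 6 biopsies, against a median of 66.6 CPM and a range of 39.0 to 155 CPM in the others. Both were above the median of their group before dosing, at 105 and 122 CPM at week -3, but neither was the highest. Placebo animal M1010 had 110 CPM and treated animal F1023 had 155 CPM at that week. M1005 had the highest placebo value at each week from 0 to 23, and F1020 the highest treated value at each week from 0 to 15.

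**Figure D4:**
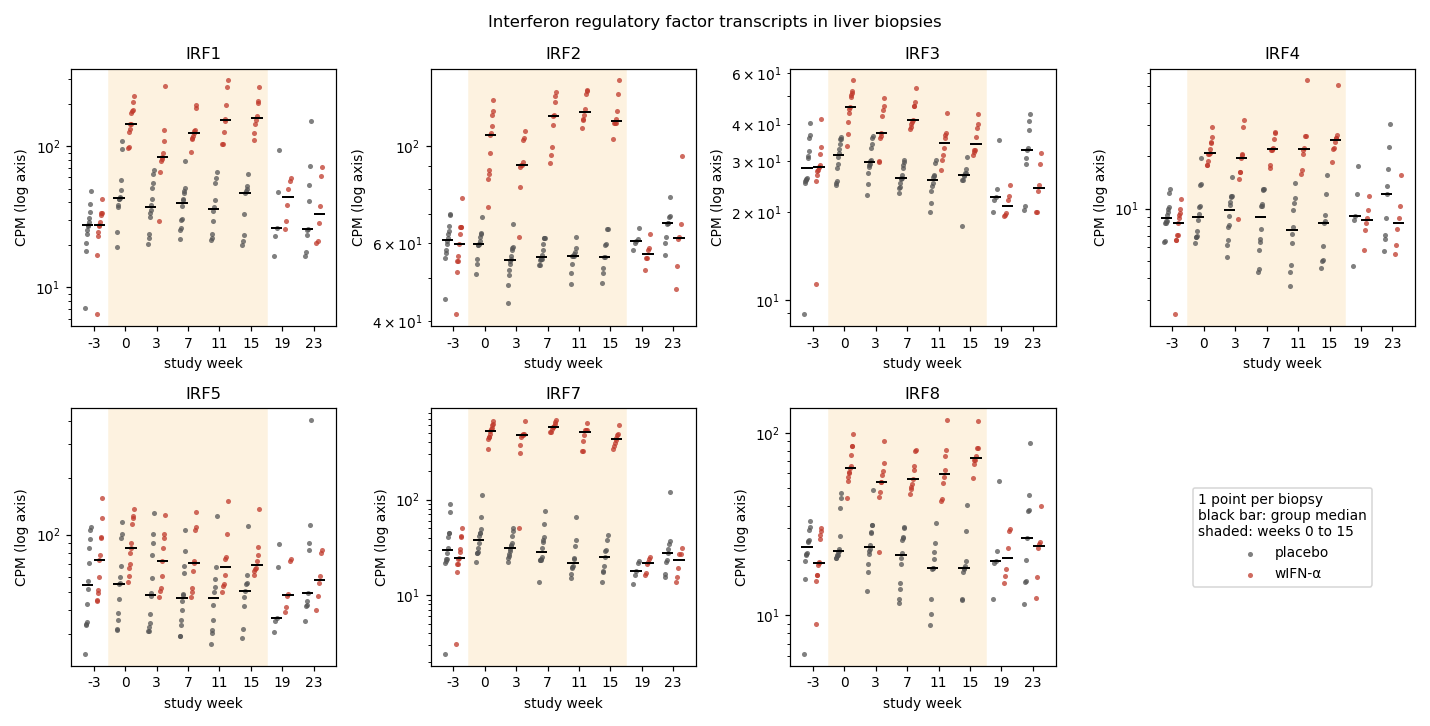
CPM of each of the 7 genes in every biopsy is plotted by study week on log axes, placebo in grey and wIFN-α in red, with black bars for the group medians and shading for weeks 0 to 15. IRF7 separates the groups at all 5 shaded weeks, from at most 119 CPM in any placebo biopsy to treated medians of 431 to 577 CPM, while the IRF5 values of the groups overlap at every week.

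Off treatment, no difference passed the test. At week 19 the log2 fold changes were between -0.26 (IRF4) and 0.19 (IRF7), and 0 of the 7 members were called, nor was any other gene called higher by edgeR (0%). None of the 7 had an unadjusted p under 0.05 there, and neither DESeq2 nor limma-voom called one. IRF7 was at 13.2, 17.8 and 22.97 CPM in placebo animals (5 animals) and at 16.3, 21.7 and 25.1 CPM in treated animals (6 animals), so that the groups overlapped at about the level of placebo. In all 6 treated animals IRF7 was lower at week 19 than at week 15, with log2 changes from -4.69 to -3.94. At week 23 the effects were negative for all 7, from -0.04 (IRF2) to -0.72 (IRF5), and again 0 members and 0% of genes were called higher. At week -3, before dosing, they were between -0.44 (IRF7) and 0.36 (IRF5), with 0 members and 0% of genes called higher. No member had an unadjusted p under 0.05 at weeks -3 or 23, and DESeq2 and limma-voom called none. Over all genes, edgeR gave an unadjusted p under 0.05 for 130, 1859 and 2416 genes at weeks -3, 19 and 23, DESeq2 called 0, 94 and 53 genes in either direction and limma-voom called 0 at each.

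Some off-treatment values rested on 1 placebo animal. Without M1008, the effect at week 19 was 0.61 for IRF1 and 0.24 for IRF8 on the log2 scale, and at week 23 that of IRF1 was 0.22 in place of -0.23. Without M1005, the effect at week 23 was -0.02 for IRF5 and -0.20 for IRF7, in place of -0.72 and -0.70. The count called was 0 in each case.

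The fall from week 15 to week 19 was tested as a difference between the effects. It passed for 6 of the 7 members, all lower, where 13.1% of the 15577 genes tested had a lower effect. The difference was -3.89 ± 0.29 for IRF7 (adjusted p = 6.53e-11), -2.13 ± 0.39 for IRF8, -2.04 ± 0.46 for IRF1, -1.94 ± 0.40 for IRF4, -1.15 ± 0.10 for IRF2 and -0.66 ± 0.16 for IRF3. For IRF5 it was -0.48 ± 0.39 (adjusted p = 0.40), and with the animal as a block -0.53 (adjusted p = 0.022), which adds it to the count, where 12.5% of genes had a lower effect in that fit. IRF5 was lower at week 19 than at week 15 in 6 of 6 treated animals and in 2 of 5 placebo animals.

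The dose was raised between weeks 3 and 7, and its effect was tested as the week 15 effect minus the mean of the effects at weeks 0 and 3. None of the 7 members passed in edgeR, DESeq2 or limma-voom, while 3 members had an unadjusted p under 0.05 with each tool. Of the 15666 genes tested by edgeR, 2.69% passed in either direction. These fits took biopsies of the same animal as independent. The differences were 0.69 ± 0.25 for IRF8 (adjusted p = 0.12), 0.29 ± 0.10 for IRF2 (adjusted p = 0.11), 0.59 ± 0.26 for IRF4 (adjusted p = 0.24), 0.60 ± 0.34 for IRF1, 0.48 ± 0.30 for IRF7, 0.07 ± 0.33 for IRF5 and -0.04 ± 0.12 for IRF3. With the animal as a block, which compares the weeks within animals, 3 members passed, where 7.16% of the 16232 genes tested did: IRF8 at 0.75 (adjusted p = 0.031), IRF2 at 0.30 (adjusted p = 0.041) and IRF4 at 0.62 (adjusted p = 0.044). With weeks 7, 11 and 15 together as the high dose, IRF2 alone passed, at 0.32 (adjusted p = 0.0019), where 5.5% of 16232 genes did. Dose and time on treatment cannot be told apart in this design.

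Weeks 0 and 3 had the same dose, but the week 0 biopsy followed the first dose and the week 3 biopsy repeated doses. Between these weeks the difference in effect did not pass for any member (0.383% of the 15406 genes tested passed). No member had an unadjusted p under 0.05 with edgeR, DESeq2 or limma-voom. The differences ran from -0.27 ± 0.38 for IRF1 to 0.10 ± 0.34 for IRF7.

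Per length, the order of the 7 transcripts changed with treatment. Levels between genes are compared here as RPKM, which is CPM divided by the length of the assembled sequence in kilobases, with lengths from 1776 nt (IRF3) to 7798 nt (IRF1). In placebo biopsies, the medians were 18.4 for IRF2, 15.4 for IRF3, 13.04 for IRF7, 11.2 for IRF5, 7.22 for IRF8, 4.75 for IRF1 and 1.499 RPKM for IRF4. Neighbours at the top were close: IRF2 was above IRF3 in 65 of 81 biopsies, IRF3 above IRF7 in 55 and IRF7 above IRF5 in 48, so that these places overlap. IRF8 was above IRF1 in 76 and IRF1 above IRF4 in 80 of 81.

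In treated biopsies of weeks 0 to 15, IRF7 came first with a median of 227 RPKM and was above IRF2 in 45 of 45 biopsies. IRF2 followed with 34.9, IRF3 with 22.5, IRF8 with 20.8, IRF1 with 16.7, IRF5 with 16.5 and IRF4 with 3.70 RPKM. IRF3 was above IRF8 in 27 of 45 biopsies and IRF1 above IRF5 in 24 of 45, so those neighbours were not separable. IRF7 moved up to the first place, IRF8 passed IRF5, and IRF4 stayed last.

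**Figure D5:**
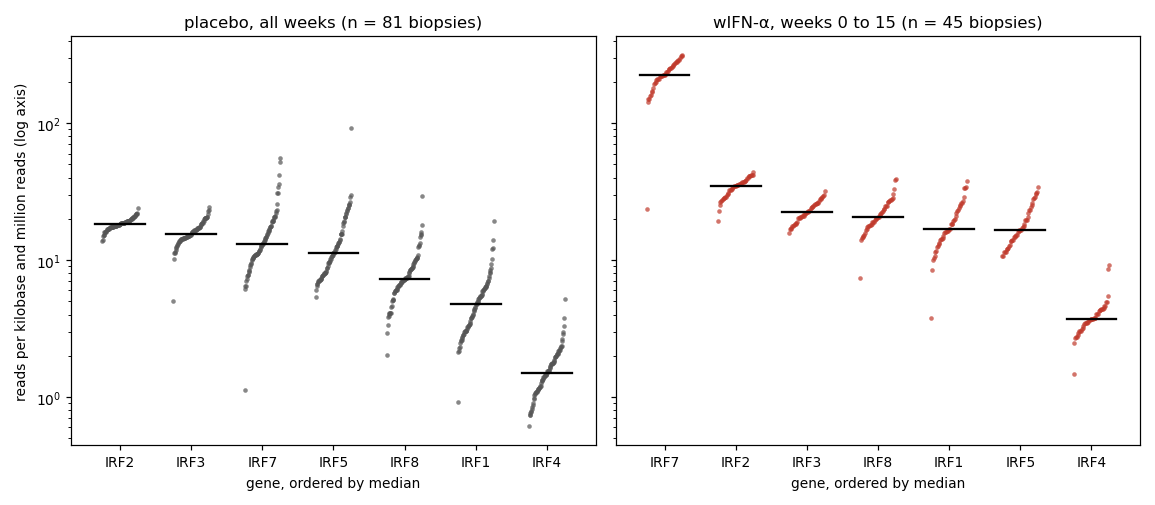
Levels per length (RPKM, log axis) of the 7 genes are plotted for every placebo biopsy (left, n = 81) and every treated biopsy of weeks 0 to 15 (right, n = 45), with the genes ordered by their medians (black bars). IRF7 is the third at 13.04 RPKM at left and the first at 227 RPKM at right, and IRF4 is last in both, at 1.499 and 3.70 RPKM.

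The labels give a lane number and a barcode for each run, but the same pair recurs in different biopsies, so that a lane number covers more than 1 flow cell and the labels identify no sequencing batch. The effects are therefore given by lane number only as a description. Over weeks 0 to 15 the mean log2 difference of wIFN-α from placebo runs, taken within each of 7 lane numbers, was 3.03 to 4.43 for IRF7, 0.71 to 2.25 for IRF1, 0.71 to 1.88 for IRF8, 0.77 to 1.63 for IRF4, 0.77 to 1.00 for IRF2, 0.25 to 0.66 for IRF3 and 0.25 to 0.72 for IRF5. It was positive at every lane number for each of the 7 genes, with at least 4 treated and 5 placebo runs for each.

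To see which genes each factor moved with beyond the treatment effect, the mean of each group and week was subtracted from log2(CPM + 1), and the 13918 genes averaging 1 CPM or more were ranked by Spearman's rho over the 149 biopsies. The biopsies share animals and libraries, and these values are descriptions. IRF1 was most like TAP1 (rho = 0.89), PSMB9 (0.86) and PSMB8 (0.86), which belong to the antigen processing machinery of MHC class I. IRF7 was most like ISG15 (0.85), OAS3 (0.85) and OAS2 (0.83), an ISG and antiviral oligoadenylate synthetases. IRF8 was most like INPP5D (0.85), TRPM2 (0.85) and UNC13D (0.85), of which INPP5D encodes the haematopoietic phosphatase SHIP. IRF4 was most like PLD4 (0.83), EVL (0.81) and PSD4 (0.80). IRF3 was most like JAK3 (0.67), MOB3A (0.66) and MAPK8IP3 (0.66), IRF5 like TNPO3 (0.72), SNORD47 (0.55) and DCLK2 (0.52), and IRF2 like RASSF4 (0.48), PPPDE2 (0.47) and RASSF9 (0.47).

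Among the 7 themselves, IRF4 and IRF8 were the closest pair (rho = 0.85), followed by IRF1 with IRF8 (0.81) and IRF1 with IRF4 (0.72). IRF7 and IRF1, both induced by wIFN-α, had a rho of 0.11 once group and week means were removed, and IRF7 and IRF8 one of 0.18. The summed T cell markers had a rho of 0.83 with IRF8, 0.77 with IRF4, 0.74 with IRF1, 0.18 with IRF7 and 0.17 with IRF2. Other cell types were near these values for IRF8, IRF4 and IRF1. For these genes in this order, rho was 0.75, 0.77 and 0.63 with B and plasma cell markers and 0.75, 0.67 and 0.70 with macrophage markers. It was 0.58, 0.49 and 0.65 with cytotoxic and NK cell markers.

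Some of these genes lie next to each other in RefSeq's woodchuck annotation, and the library kit is not stated to keep the strand of the RNA. Reads of neighbours whose assembled sequences overlap therefore cannot be told apart. TNPO3, a nuclear import receptor, has a range that overlaps IRF5 in that annotation. TNPO3 itself did not pass the test at any week, with a log2 fold change of -0.09 ± 0.08 at week 15. In M1005 it was at 67.1 to 138 CPM with a median of 73.7 CPM. The other placebo animals had a median of 57.2 CPM and a range of 42.2 to 78.8 CPM, so that the values overlapped. In F1020, also high in IRF5, TNPO3 was at 62.8 to 72.9 CPM, within the 47.3 to 88.9 CPM of the other treated animals. PHRF1, a ubiquitin ligase gene, lies next to IRF7 without overlap there. PHRF1 rose by 2.35 ± 0.15 at week 0 and 2.61 ± 0.14 at week 15 on the log2 scale (adjusted p = 9.22e-12 and 6.25e-11), had an effect of 0.11 ± 0.11 at week 19, and had a rho of 0.81 with IRF7. BCL2L12, next to IRF3 without overlap and with a rho of 0.56, had an effect of 0.02 ± 0.09 at week 15. What part of IRF7 or PHRF1 reads comes from the other gene was not tested.

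IRF9, the DNA-binding subunit of the ISGF3 complex, rose at all 5 treatment weeks, by 0.88 ± 0.08 at week 0 and 0.82 ± 0.06 at week 15 on the log2 scale (adjusted p = 2.13e-09 and 8.66e-09). Its week 3 effect of 0.60 ± 0.12 lay just above 1.5-fold, and that call was lost with limma-voom (0.57), with M1004 (0.58), with the animal as a block (0.54) and without M1007 (0.55), M1012 (0.58) or F1014 (0.57).

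Upstream of the factors, 13 adaptors and kinases that lead to their activation were all tested, with 7 called higher and 0 lower at week 0 and 9 higher and 1 lower at week 15. The median log2 fold change at week 15 was 0.84, where that of all genes was -0.01. TMEM173, which encodes the DNA sensor adaptor STING, was the highest at 2.47 ± 0.41 and AZI2, a TBK1-binding adaptor, followed at 1.51 ± 0.06. TBK1, the kinase of IRF3 and IRF7, rose by 1.02 ± 0.08, MYD88, the Toll-like receptor adaptor, by 0.80 ± 0.07 and IKBKE by 1.00 ± 0.29. TBKBP1 was the lowest and fell by 0.70 ± 0.23, and MAVS, the adaptor of the RNA sensors, was at -0.18 ± 0.08 and did not pass. At week 19 their median was 0.02.

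Of 11 binding partners and co-regulators, 4 were called higher at week 0 and 6 at week 15, with none lower. BATF2, a partner of IRF1 and IRF8, had 3.89 ± 0.27 and TRIM21, a ubiquitin ligase of IRF proteins, 3.07 ± 0.17 on the log2 scale at week 15. BATF3 (1.81 ± 0.31) and BATF (1.52 ± 0.44), which pair with IRF8 and IRF4, and SPI1, which encodes PU.1 (0.68 ± 0.21), were called as well. SPIB was the lowest, at -0.34 ± 0.09, and the IRF2-binding proteins IRF2BP1, IRF2BP2 and IRF2BPL, at -0.19, 0.28 and 0.23, were not called.

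Genes known to be driven by IRF1 were called higher in 13 of 15 cases at week 0 and 15 of 15 at week 15, at a median of 1.94 and 2.52. IDO1, a tryptophan-degrading enzyme, had 4.52 ± 0.59, GBP2, a guanylate-binding protein, 4.10 ± 0.19, and CIITA, the MHC class II transactivator, 0.92 ± 0.24, the 2 highest and the lowest at week 15. Of the genes known to be driven by IRF3 and IRF7, 8 of 9 were listed, and 7 were called higher at week 0 and 8 at week 15, at a median of 5.20 and 6.22. OASL had 7.33 ± 0.37, RSAD2 7.28 ± 0.17 and the chemokine CCL5 0.78 ± 0.18. Interferon signalling also induces most of these genes through ISGF3, so the lists do not separate the factors. At week 19 the medians were 0.08 and 0.21.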

How the data were processed

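Poly(A) RNA of woodchuck liver biopsies was sequenced as paired-end reads of 50 nt. The authors mapped reads to their own transcriptome assembly with Bowtie2 and counted them with SAMtools. The deposited values are expected counts per gene, not normalized (118 of 3368022 nonzero values are fractions). Gene lengths were recovered from the ratio of counts to the RPKM that the authors deposited beside them. Summing the 203 runs by biopsy and rounding gave 164 biopsies, of which 149 were used, 7 belong to M1004 and 8 to other weeks. The virus entry (0.00107% to 4.12% of reads per run) was left out. Weeks are the study's, since the labels count the first treatment week as 1. CPM use TMM-adjusted library sizes.

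Each week was fitted with edgeR 4.0.16 (R 4.3.3), with its low count filter, TMM and the quasi-likelihood test, and p-values were adjusted by Benjamini-Hochberg. Differences between effects came from 1 fit of the weeks involved and needed an adjusted p under 0.05. Except with the animal as a block, these fits took biopsies of the same animal as independent. The SE is the effect divided by the square root of F. Tested on simulated counts for week 15, the fit recovered 76 of 87 genes changed 2-fold and 106 of 113 changed 4-fold, with 6 others called among 14862. Permutation tests used scipy 1.17.1, with 100000 resamples where both groups had at least 10 animals. Alternatives were DESeq2 1.42.0, limma-voom 3.58.1, RLE, no filter, the deepest run, M1004 included, a sex covariate, a 2-fold threshold, all weeks in 1 fit, treated animals left out in turn (and placebo animals at weeks 19 and 23), biopsies with muscle left out and the animal as a block. Animal numbers in the labels pair the biopsies: over weeks 0, 3, 15 and 19, deviations from group means correlated at a median of 0.32 in 88 pairs of the same animal (57 above 0.1) and -0.01 in 864 pairs of others. Named genes were the members, IRF9, the 2 highest and the lowest of each of 13 lists at week 15, and the 3 most like genes of each member; others are named by role after their values were seen. Members and lists were chosen with earlier results of these data known. One gene that the rule names is not reported here.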

Additional observations from a re-analysis of the deposited data

Results flagged for a closer look

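In 15 of 70 groups of 4 to 10 biopsies, the highest or lowest animal lay apart from the others by Dixon's criterion. That criterion is met in about 1 in 20 groups of independent, normally distributed values. The groups here share animals and genes that vary together, so the count cannot be compared with that rate. The animals recur across genes and weeks. Treated animal F1020 was the highest for IRF4 at week 11 (54.3 CPM, others up to 26.1) and week 15 (51.1 CPM, others up to 26.3), for IRF5 at week 15 (136 CPM, others up to 85.6) and for IRF8 at week 15 (116 CPM, others up to 83.1). Placebo animal M1008 was the highest for IRF1 at week 23 (151 CPM, others up to 72.8), IRF3 at week 19 (35.3 CPM, others up to 24.1) and IRF8 at weeks 19 and 23 (54.2 and 88.2 CPM, others up to 22.6 and 45.9).

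Placebo animal M1005 was the highest for IRF5 at weeks 11, 15 and 23 (125, 110.4 and 402 CPM, others up to 67.4, 61.6 and 113) and for IRF7 at week 23 (119 CPM, others up to 37.2). Placebo animal F1021 was the highest for IRF7 at week 11 (66.2 CPM, others up to 38.0) and the lowest for IRF3 at week 15 (17.9 CPM, others from 25.7). Treated animal M1007 was the highest for IRF1 at week 3 (268 CPM, others up to 129).

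For 6 genes the effect of wIFN-α differed between weeks 15 and 19 by a test of the difference itself. The log2 difference was -2.04 for IRF1, -1.15 for IRF2, -0.66 for IRF3, -1.94 for IRF4, -3.89 for IRF7 and -2.13 for IRF8.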

How the results depend on the processing

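Of 1456 log2 fold changes of single genes under the alternatives, 1400 kept their direction and their side of the threshold, as did 89 of 98 ratios. Of 182 counts of members called, 167 equalled the count reported, and the counts ranged from 4 to 6 at week 0, 4 to 5 at week 3, 4 to 7 at week 7 and 5 to 6 at week 15, with the lowest at weeks 0, 3 and 7 from the 2-fold threshold. With the animal as a replicate block, the count of members whose effect differed between week 15 and weeks 0 and 3 was 3, and with weeks 7, 11 and 15 as the high dose it was 1, in place of 0, while the share of all genes passing was 7.16% and 5.5%, in place of 2.69%. The block changed no other call than those given with the results. Values that changed sign were all from comparisons that did not pass. At week -3 these were IRF1 with M1004 (0.065) and IRF3 with limma-voom (0.0082). At week 19 they were IRF4, IRF5 and IRF8 with the block (0.18, -0.15 and 0.13) and IRF5 with M1004 (-0.0019), and at week 23 IRF1 with the block (0.067). Between weeks, they were IRF3 with the 3 high-dose weeks (0.072) and, for week 3 against week 0, IRF7 with limma-voom (-0.20) and with the block (-0.050). The cause was not tested. Leaving out animals in turn, which for week 23 was chosen after seeing the data, gave at week 19 -0.12 to 0.61 for IRF1, -0.45 to 0.0066 for IRF4, -0.081 to 0.36 for IRF5 and -0.40 to 0.24 for IRF8, and at week 23 -0.46 to 0.22 for IRF1 and -0.17 to 0.038 for IRF2. The ratio of IRF1 to IRF2 ranged from -0.058 to 0.15 at week -3, 0.29 to 0.65 at week 3 and -0.10 to 0.20 at week 23. Without F1013, IRF9 gave -0.0062 for week 15 against weeks 0 and 3, and IRF2 0.054 for week 3 against week 0. The few biopsies at weeks 19 and 23 limit what could be detected there.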

Other observations

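Treated animal M1004, outside the groups, had IRF7 at 32.1 CPM at week -3, between 412 CPM (week 0) and 611 CPM (week 7) on treatment, and 11.7 CPM at week 19. Its IRF1 was at 49.8 CPM at week -3, 136 to 173 CPM on treatment and 70.1 CPM at week 19, and its IRF2 at 66.6, 103 to 137 and 58.1 CPM.

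The 8 biopsies labelled with other weeks or as taken at death are single values. IRF7 was at 335 CPM in M1006 at label week 3, and at 631 CPM in M1007, 494 CPM in F1023 and 181 CPM in F1020, all treated animals that died. In F1020, IRF1 was at 28.6 CPM and IRF2 at 76.4 CPM in the same biopsy. Treated animal M1002 at label week 26 had 41.4 CPM of IRF7, and the placebo animals M1010 and F1017 at label week 18 and F1024 at death had 22.4, 25.5 and 33.7 CPM.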
